A study of Danio rerio with 16 samples.

Results

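Genes of glycolysis and glucose uptake were described in nuclei of adult zebrafish (*Danio rerio*) hearts. A list of 32 symbols was looked up in the gene tables of the deposited counts, and 31 were found, of 24753 symbols shared by all tables. Each of the 31 stood for 1 gene ID, the same in the tables of both genotypes. The list holds the hexokinases *hk1*, *hk2* and *gck*, the glucose phosphate isomerases *gpia* and *gpib*, and the phosphofructokinases *pfkma*, *pfkmb*, *pfkpa*, *pfkpb* and *pfkla*. It goes on with the aldolases *aldoaa*, *aldoab*, *aldoca* and *aldocb*, the triosephosphate isomerases *tpi1a* and *tpi1b*, the glyceraldehyde phosphate dehydrogenases *gapdh* and *gapdhs*, and the phosphoglycerate kinase *pgk1*. It ends with the phosphoglycerate mutases *pgam1a*, *pgam1b* and *pgam2*, the enolases *eno1a*, *eno1b*, *eno2* and *eno3*, the glucose transporters *slc2a1a* and *slc2a1b*, and the regulators *pfkfb3*, *pfkfb4b* and *bpgm*. The lactate transporter *slc16a3a* was the symbol not found, and it was not analysed here under that name. A row named *slc16a3* was present. It was not taken as this gene and was counted among the other transporters and regulators below.

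The study asked how *cited4a*, a gene for a transcriptional co-regulator, bears on cardiomyocytes during heart regeneration. Hearts came from wild-type fish (WT) and from fish labelled homozygous for the *cited4a* allele pt38a, called mutant here. They were taken uninjured (UI) or 3 days after amputation (3 dpa) of about 20% of the ventricle, which zebrafish regrow, and were frozen before nuclei were isolated for 3′ single-nucleus RNA sequencing. The labels name 16 samples, 4 per group, but the counts of each group stood in 1 matrix whose barcodes name no sample, so each group is 1 library here.

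Glycolysis splits glucose into pyruvate in the cytosol and yields ATP without oxygen. Adult heart muscle draws most of its energy from fatty acids in mitochondria, and a turn towards glycolysis in cardiomyocytes at the wound border is known from zebrafish heart regeneration. The steps catalysed by hexokinase and phosphofructokinase are the main points of control. Many of these enzymes have a pair of zebrafish paralogs, so that a step can be carried by different genes in different cells.

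Nuclei with at least 500 UMIs (unique molecular identifiers, each counted as 1 RNA molecule) and at most 5% mitochondrial UMIs were kept. That left 8178 nuclei labelled WT UI, 10394 labelled WT 3 dpa, 9932 labelled mutant UI and 9140 labelled mutant 3 dpa, with 10346669 to 18521265 UMIs on the shared genes. They came from 8309, 12167, 35484 and 12360 barcodes. Before filtering, the median barcode had 1721, 966, 462 and 732 UMIs and 0.576%, 2.06%, 5.20% and 1.70% mitochondrial UMIs, so mutant UI was the poorest library. The shared genes held 99.94%, 99.96%, 89.2% and 90.7% of the UMIs of kept nuclei. Values below follow that order of libraries, and levels are CPM, a gene's UMIs as a share of the library's UMIs on shared genes scaled to the usual fixed total, not corrected for gene length. Brackets give 95% exact Poisson intervals, which cover counting error only. The WT matrices listed 25432 genes and the mutant matrices 27758. Genotype and list of genes cannot be told apart. The WT libraries shared 136 barcodes, the mutant libraries 133, and libraries of different genotype 0. The targeted gene *cited4a* was counted at 153, 53.7, 32.6 and 370 CPM, highest in the library labelled mutant 3 dpa. The labels do not describe the allele. RNA of *ankrd1a*, a cardiomyocyte stress gene raised at the wound border, was found in 1.25%, 7.58%, 2.98% and 0.0766% of nuclei, so its order between the injury labels was opposite in the genotypes. Summed levels of 7 macrophage markers, all detected in each library, were 331, 516, 577 and 95.4 CPM and also moved in opposite directions. Every direction below therefore rests on the library labels. With 1 library per group, fewer cells of a type and less RNA per cell cannot be told apart, and no ratio between libraries was tested.

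The 31 genes together made up 5802 (5765 to 5839), 5640 (5606 to 5675), 5279 (5237 to 5322) and 5552 (5506 to 5597) CPM. By plain CPM the summed level thus spanned a narrow range, while some single genes differed more widely. The sum was not scaled by TMM, described below, which would divide the levels by 0.856, 1.24, 1.12 and 0.842. The narrow range therefore holds for plain CPM only. Nuclei were also split at their own library's median share of UMIs from the cardiomyocyte genes *ttn.1*, *ttn.2*, *ryr2b*, *myl7* and *tnnt2a*, into cardiomyocyte-high and cardiomyocyte-low nuclei. The sum over the 31 genes was 6086, 6154, 5258 and 5213 CPM in cardiomyocyte-high nuclei, and 5291, 4371, 5309 and 6009 CPM in cardiomyocyte-low nuclei. By plain CPM the sum was higher in cardiomyocyte-high nuclei in both WT libraries and lower in the library labelled mutant 3 dpa. In mutant UI the intervals overlapped. TMM scaling of these pools would raise the log2 difference, cardiomyocyte-high minus cardiomyocyte-low, by 0.361, 0.624, 0.38 and 0.245. The order in the mutant libraries therefore holds for plain CPM only. The split is not a separation of cell types. The 5 marker genes still summed to 32593, 7806, 11971 and 23135 CPM in cardiomyocyte-low nuclei, against 67934, 53509, 35118 and 43497 CPM in the others.

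**Figure D1:**
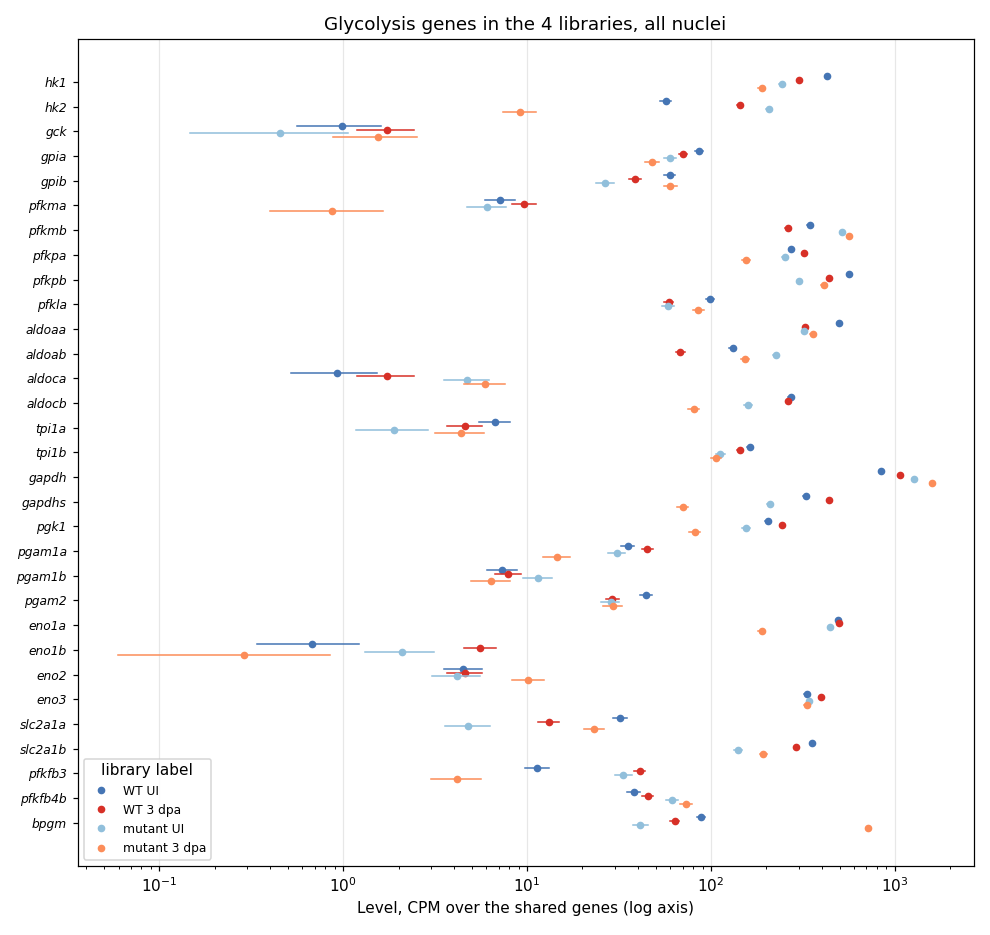
Level of each of the 31 genes in all nuclei of the 4 libraries (log axis, CPM), with points for libraries and bars for 95% exact Poisson intervals of the counts. *eno3* stays between 331 and 398 CPM, while *hk2* spans 9.18 to 207 CPM and *bpgm* 41.4 to 714 CPM.

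Glucose enters cells through the transporters *slc2a1a* and *slc2a1b*, paralogs of the transporter that supplies most mammalian tissues with glucose. *slc2a1b* was counted at 356 (346 to 365), 290 (283 to 298), 140 (133 to 147) and 192 (184 to 201) CPM. Both WT libraries were above both mutant libraries. *slc2a1a* was counted at 31.8 (29.2 to 34.7), 13.1 (11.5 to 14.9), 4.80 (3.59 to 6.27) and 23.1 (20.3 to 26.2) CPM, lowest in the library labelled mutant UI. *slc2a1b* supplied 91.8%, 95.7%, 96.7% and 89.3% of the UMIs of the pair.

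Hexokinases trap glucose in the cell as its phosphate. *hk1*, the form found in most mammalian tissues, was counted at 429 (418 to 439), 300.4 (293 to 308), 244 (234 to 253) and 188 (180 to 197) CPM. *hk2*, the chief form of adult mammalian skeletal muscle, was counted at 56.7 (53.1 to 60.5), 144 (139 to 150), 207 (199 to 216) and 9.18 (7.43 to 11.2) CPM. Its highest library was 22.6-fold above its lowest, and the library labelled mutant 3 dpa stood far below the other 3. The share of hexokinase UMIs from *hk2* was 11.7%, 32.3%, 45.9% and 4.61%, with 95% exact Clopper-Pearson intervals of 11.0% to 12.4%, 31.3% to 33.3%, 44.5% to 47.3% and 3.75% to 5.61%. *gck*, the glucokinase of liver and islets, had 5 to 32 UMIs per library, at 0.452 to 1.73 CPM. In RefSeq it overlaps *myl7*, a marker of the split below, and the use of strand in counting is not stated.

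Glucose phosphate isomerase turns the product of hexokinase into the substrate of phosphofructokinase. *gpia* was counted at 86.2, 70.4, 59.8 and 48.0 CPM and *gpib* at 59.5, 38.6, 26.6 and 60.1 CPM. *gpib* held 40.8%, 35.4%, 30.8% and 55.6% of the UMIs of the pair, so it held the larger share only in the library labelled mutant 3 dpa. The interval of that share, 52.6% to 58.5%, lay above those of the other libraries.

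Phosphofructokinase commits sugar to glycolysis, and its subunits are named for muscle (*pfkma*, *pfkmb*), platelet (*pfkpa*, *pfkpb*) and liver (*pfkla*). *pfkpb* had most UMIs of the step in both WT libraries and *pfkmb* in both mutant libraries. *pfkpb* was counted at 563, 436, 302 and 411 CPM, highest in WT UI. *pfkmb* was counted at 343 (335 to 353), 261 (254 to 268), 513 (499.7 to 527) and 562 (548 to 577) CPM, with both mutant libraries above both WT libraries. Its share of the UMIs of the step was 26.7%, 24.0%, 45.4% and 46.3%. *pfkpa* was counted at 274, 321, 251 and 155 CPM, lowest in the library labelled mutant 3 dpa. *pfkla* ranged from 58.6 to 98.7 CPM. *pfkma* was scarce, at 7.15, 9.61, 6.06 and 0.870 CPM, the last from 9 UMIs.

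Aldolase splits the sugar into triose phosphates. *aldoaa*, related to the muscle form of mammals, had most UMIs of the step, at 498, 323, 322 and 359 CPM. Its paralog *aldoab* was counted at 131 (126 to 137), 67.9 (64.2 to 71.8), 225 (216 to 234) and 153 (146 to 161) CPM. *aldoab* was lower under the 3 dpa label in both genotypes. *aldocb*, related to the brain form, was counted at 271, 263, 159 and 80.7 CPM, so that the *aldoab* share of the step was 14.5%, 10.3%, 31.7% and 25.6% and the *aldocb* share 30.1%, 40.1%, 22.4% and 13.5%. *aldoca* was scarce, from 0.924 to 5.90 CPM.

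Triosephosphate isomerase interconverts the triose phosphates. *tpi1b* was counted at 163, 144, 112 and 106 CPM, and *tpi1a* at 1.90 to 6.65 CPM. Glyceraldehyde phosphate dehydrogenase makes the first NADH of the pathway. *gapdh* was counted at 843 (829 to 857), 1071 (1056 to 1086), 1275 (1254 to 1297) and 1582 (1558 to 1607) CPM. Its log2 ratio of 3 dpa over UI in WT was 0.34 but turned to -0.19 under TMM scaling, described below, so no direction is given for it there. *gapdhs*, named for the sperm form of mammals, was counted at 327 (318 to 336), 440 (430 to 449), 209 (201 to 218) and 70.1 (65.1 to 75.4) CPM. The *gapdhs* share of the UMIs of the pair was 27.9%, 29.1%, 14.1% and 4.24%, lower in both mutant libraries than in both WT libraries.

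Phosphoglycerate kinase makes ATP. Its gene *pgk1* was counted at 204 (197 to 211), 244 (237 to 251), 155 (148 to 162) and 81.7 (76.3 to 87.4) CPM. Phosphoglycerate mutase moves the phosphate. *pgam1a* was counted at 35.2, 45.1, 30.8 and 14.5 CPM, and *pgam2*, the muscle form of mammals, at 44.3, 29.1, 28.4 and 29.2 CPM. *pgam1b* stayed between 6.38 and 11.4 CPM. For *pgk1* and *pgam1a* the library labelled mutant 3 dpa was again the lowest.

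Enolase makes phosphoenolpyruvate. *eno1a*, related to the general form of mammals, was counted at 491 (480 to 502), 496 (486 to 506), 446 (434 to 459) and 189 (181 to 198) CPM. *eno3*, the muscle form, varied least of the 31, at 331, 398, 342 and 331 CPM, a span of 1.20-fold. The *eno1a* share of the step was therefore 59.4%, 54.8%, 56.1% and 35.7%. *eno1b* was counted at 0.678, 5.56, 2.08 and 0.290 CPM, from 11, 103, 23 and 3 UMIs, and *eno2*, the neuronal form, at 4.16 to 10.1 CPM.

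The regulators set the pace of the pathway or branch from it. *pfkfb3* makes the sugar phosphate that activates phosphofructokinase. It was counted at 11.3 (9.76 to 13.1), 40.9 (38.1 to 43.9), 33.4 (30.1 to 37.0) and 4.16 (3.01 to 5.60) CPM. As for *hk2*, WT 3 dpa and mutant UI stood above WT UI and the library labelled mutant 3 dpa. *pfkfb4b*, a further gene of that enzyme family, was counted at 38.0, 45.4, 61.6 and 73.0 CPM. *bpgm*, which in mammalian red cells makes the phosphate ester that lowers the oxygen affinity of haemoglobin, was counted at 88.1 (83.6 to 92.8), 63.5 (59.9 to 67.2), 41.4 (37.7 to 45.3) and 714 (697 to 730) CPM. Its level in the library labelled mutant 3 dpa came from 7384 UMIs, against 457 to 1430 UMIs in the others.

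**Figure D2:**
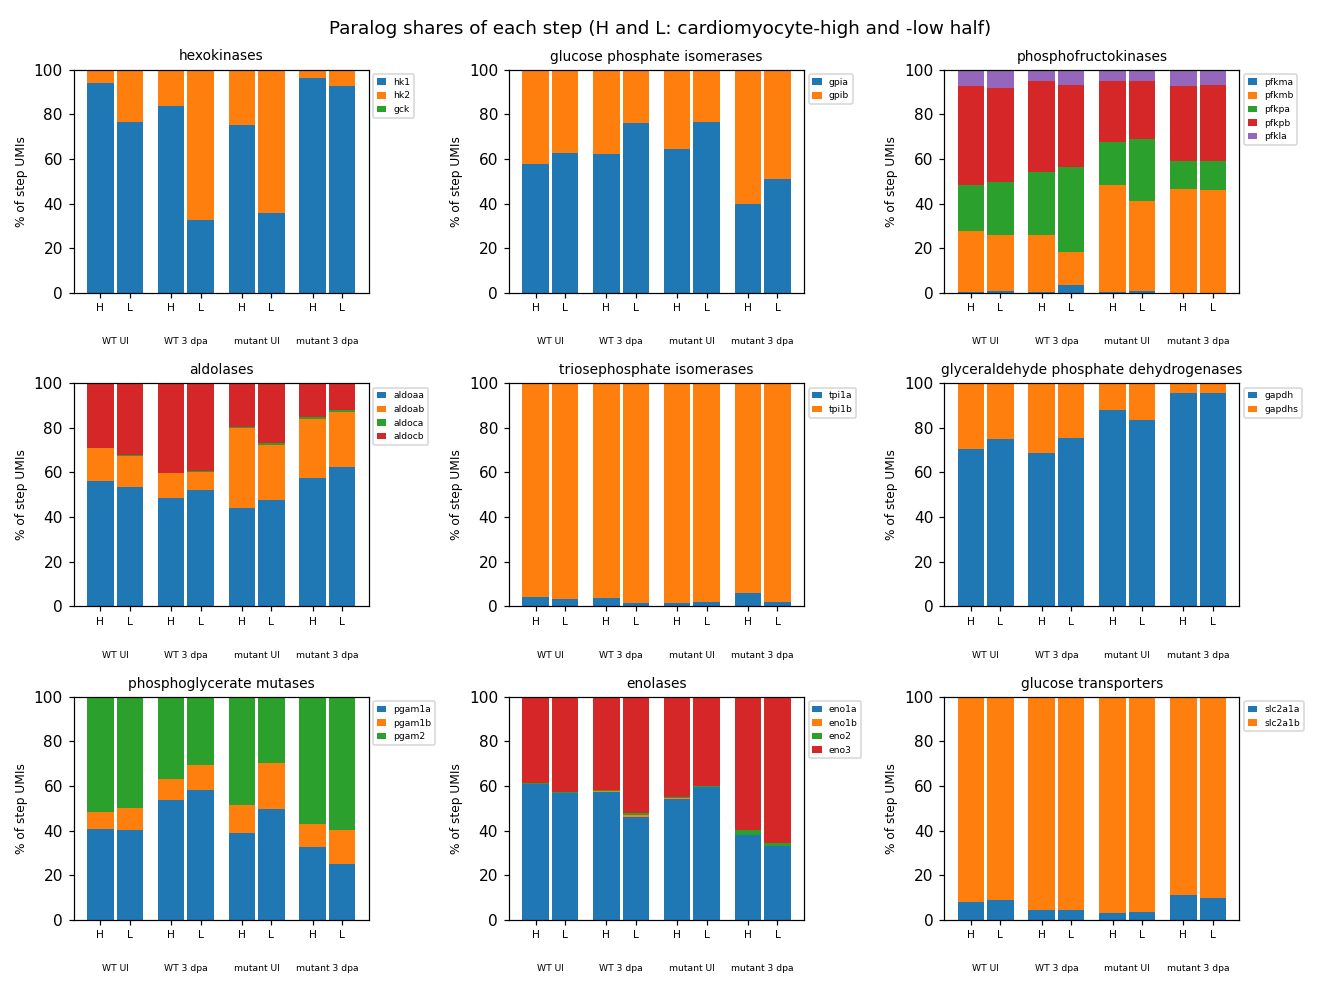
Share of each step's UMIs (percent) from each paralog, for 9 steps with more than 1 gene, in cardiomyocyte-high (H) and cardiomyocyte-low (L) nuclei of each library. The *hk2* share among cardiomyocyte-low nuclei reaches 66.7% in WT 3 dpa and 64.2% in mutant UI, and the *gapdhs* share falls to 4.22% and 4.26% in the library labelled mutant 3 dpa.

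Injured and uninjured hearts were compared within each genotype by the log2 ratio of CPM + 10, a scale that understates the change of genes with few UMIs. In WT, *hk2* and *pfkfb3* were the 2 of 31 genes past 2-fold between the labels, both higher at 3 dpa. Over all 24753 genes, 2.73% were past 2-fold, and 6.88% of those with at least 10 CPM in either library. The ratio was 1.21 for *hk2* (counting interval 1.11 to 1.30) and 1.26 for *pfkfb3* (1.12 to 1.39). Scaling by the trimmed mean of M-values (TMM), which shifted WT ratios by -0.54, brought these to 0.73 and 0.89. The direction of the count turned with the scaling: under TMM 0 genes were past 2-fold higher and 5 lower, namely *hk1*, *pfkla*, *aldoaa*, *aldoab* and *slc2a1a*. The median ratio of the 31 genes was 0.01 and turned to -0.38 under TMM, while that of all genes was 0.10, or 0.01 under TMM. Among genes with at least 10 CPM in either library, the median was -0.21 for 24 of the 31 and 0.21 over all. The number of the 31 genes above 0 was 16, or 5 under TMM. Of all genes with at least 10 CPM, 70.8% were above 0 without TMM. In cardiomyocyte-high nuclei *hk2* (1.02) and *pfkfb3* (1.41; 0.69 and 1.14 under TMM) were again the 2 genes past 2-fold, beside 1.97% of all genes (5.47% of those with at least 10 CPM). In cardiomyocyte-low nuclei 11 genes were past 2-fold, beside 8.19% of all genes (17.7% of those with at least 10 CPM), with *hk2* (1.54) and *pfkfb3* (1.01) higher and 9 lower. The lower genes included *pfkmb* (-1.75), *aldoab* (-1.32) and *pfkpb* (-1.30). Under TMM 0 were past 2-fold higher and 16 lower. Shares of all genes past 2-fold, here and below, hold for plain CPM. None is given under TMM, so the counts under TMM cannot be set against them. The summed cardiomyocyte markers were also lower in those nuclei of WT 3 dpa, at 7806 against 32593 CPM. Their part in these ratios was not tested.

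In the mutant libraries 6 of 31 genes were past 2-fold, beside 4.59% of all genes and 11.4% of those with at least 10 CPM in either library. Under the 3 dpa label *bpgm* (3.82, counting interval 3.71 to 3.93) and *slc2a1a* (1.16) were higher. *hk2* (-3.50, interval -3.65 to -3.35), *pfkfb3* (-1.62), *gapdhs* (-1.45) and *eno1a* (-1.20) were lower. TMM scaling shifted these ratios by 0.41 and kept each direction, and it brought *eno1a* to -0.80 and *gpib* past 2-fold (1.27), for 3 higher and 3 lower. The median of the 31 genes was -0.05, as was that of all genes, and turned to 0.26 under TMM. Among genes with at least 10 CPM in either library, however, the median was -0.06 for 26 of the 31 and -0.28 over all. Of the 31 genes 15 were above 0, or 19 under TMM. Of all genes with at least 10 CPM, 26.6% were above 0 without TMM. The same 6 genes were past 2-fold in cardiomyocyte-high nuclei, beside 3.07% of all genes (8.29% of those with at least 10 CPM), with *bpgm* at 3.60 and *hk2* at -2.59. In cardiomyocyte-low nuclei 7 genes were past 2-fold, beside 7.17% of all genes (16.4% of those with at least 10 CPM), among them *bpgm* (4.19) and *hk2* (-4.06). *hk2* and *pfkfb3* thus moved in opposite directions between the injury labels of WT and mutant, as did the *ankrd1a* share and the macrophage markers. What part the labels or the macrophage share have in this was not tested.

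**Figure D3:**
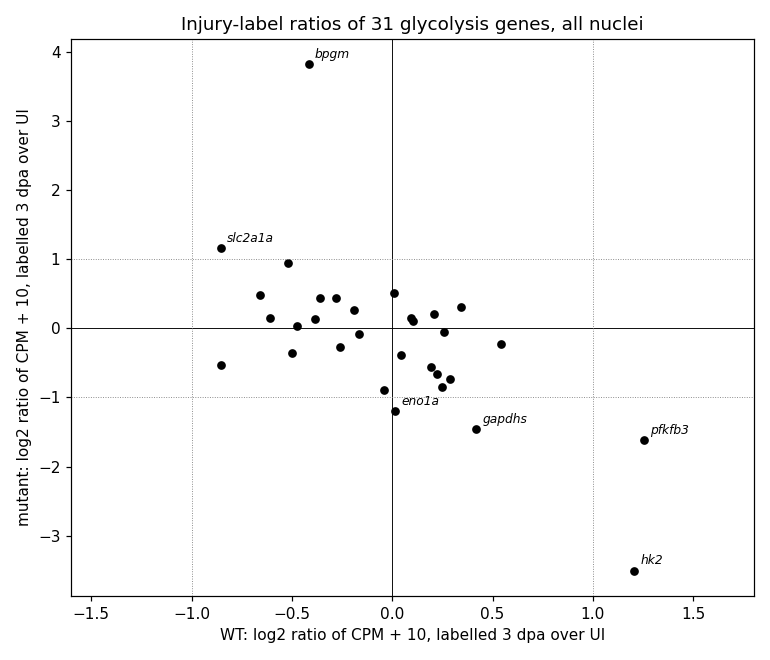
Log2 ratio of CPM + 10 between libraries labelled 3 dpa and UI for the 31 genes in all nuclei, WT on the horizontal and mutant on the vertical axis, with dotted lines at 2-fold. *hk2* and *pfkfb3* lie past 2-fold on both axes with opposite signs (1.21 and -3.50, 1.26 and -1.62), and *bpgm* lies at 3.82 in the mutant.

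Genotypes were compared under each injury label, with the limit that gene table and genotype cannot be told apart. These ratios use the same 4 libraries as the ratios above and are not independent of them. At UI, 4 of 31 genes were past 2-fold, beside 6.14% of all genes and 15% of those with at least 10 CPM in either library. *hk2* (1.70) and *pfkfb3* (1.02) were higher in mutant UI, and *slc2a1a* (-1.50) and *slc2a1b* (-1.29) were lower. With TMM scaling, which shifted these ratios by -0.39, 9 genes were past 2-fold, 1 higher and 8 lower. In cardiomyocyte-high nuclei the 4 genes past 2-fold, beside 5.28% of all genes (14.1% of those with at least 10 CPM), were *hk2* (1.36), *gapdhs* (-1.02), *slc2a1a* (-1.58) and *slc2a1b* (-1.35). In cardiomyocyte-low nuclei the 4 genes past 2-fold, beside 7.15% of all genes (16.1% of those with at least 10 CPM), were *hk2* (1.71), *pfkfb3* (1.11), *slc2a1a* (-1.35) and *slc2a1b* (-1.12). The median over the 31 genes in all nuclei was -0.15 (-0.51 under TMM), with 10 above 0, and the median of all genes was 0.03. Among genes with at least 10 CPM in either library, the median was -0.46 for 25 of the 31 and 0.29 over all. Of all these genes, 69.4% were above 0 without TMM.

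At 3 dpa, 11 of 31 genes were past 2-fold, beside 6.85% of all genes and 16.7% of those with at least 10 CPM in either library. *bpgm* (3.30, counting interval 3.22 to 3.38), *pfkmb* (1.08) and *aldoab* (1.07) were higher in the library labelled mutant 3 dpa. The 8 lower genes were *hk2* (-3.01), *gapdhs* (-2.49), *pfkfb3* (-1.85), *aldocb* (-1.59), *pgk1* (-1.47), *eno1a* (-1.34), *pgam1a* (-1.17) and *pfkpa* (-1.004). TMM scaling shifted these ratios by 0.56 and kept the direction of all 11, but left *pfkpa* at -0.47, *pgam1a* at -0.77, *eno1a* at -0.80 and *pgk1* at -0.95. Under TMM 5 genes were past 2-fold higher and 4 lower. Of the 31 genes 12 were above 0, or 19 under TMM. Their median was -0.13 and turned to 0.11 under TMM, beside -0.10 over all genes, or -0.01 under TMM. Among genes with at least 10 CPM in either library, the median was -0.26 for 25 of the 31 and -0.25 over all. Of all these genes, 33.8% were above 0 without TMM. In cardiomyocyte-high nuclei 9 genes were past 2-fold, beside 4.96% of all genes (13.3% of those with at least 10 CPM), with *bpgm* (2.98) the 1 gene higher. There *gapdhs* (-2.81), *pgk1* (-1.77), *aldocb* (-1.74) and *eno1a* (-1.55) were lower in the library labelled mutant 3 dpa. In cardiomyocyte-low nuclei 11 genes were past 2-fold, beside 13.8% of all genes (29.3% of those with at least 10 CPM). *bpgm* (4.63), *pfkmb* (2.69), *aldoab* (1.89), *gpib* (1.32) and *pfkpb* (1.08) were higher, and the 6 lower genes ranged from -3.89 for *hk2* to -1.12 for *aldocb*.

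The split of nuclei by cardiomyocyte RNA was tested over the 4 libraries as replicates of the split. More glycolysis genes were higher in cardiomyocyte-high nuclei than were lower, and *hk2* went the other way. edgeR's quasi-likelihood test on UMI sums per library and pool, with library as a block, TMM scaling and Benjamini-Hochberg adjustment over 16195 genes, tested 30 of the 31, and *gck* had too few UMIs. At an adjusted p under 0.05, 11 genes were higher in cardiomyocyte-high nuclei, where 12.7% of all genes tested were, and 1 was lower, where 18.9% were. The median log2 difference of the 30 genes was 0.54, and that of all genes tested was -0.02. TMM scaling raised the difference between the pools by 0.24 to 0.62 within the libraries, relative to library totals. The pools also differed in depth. Median UMIs were 2046, 2031, 1229 and 1147 in cardiomyocyte-high nuclei, and 964, 785, 772 and 789 in cardiomyocyte-low nuclei.

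*hk2* was counted in cardiomyocyte-high nuclei at 28.2, 67.4, 88.0 and 6.22 CPM and in cardiomyocyte-low nuclei at 108, 333, 376 and 13.2 CPM. It was lower in cardiomyocyte-high nuclei in 4 of 4 libraries, by a log2 difference of -1.51 (SE 0.17, edgeR adjusted p = 0.000495). *hk1* went the opposite way, at 467, 356, 268 and 192 CPM against 360, 163, 209 and 184 CPM, higher in 4 of 4 libraries (0.88, SE 0.25, edgeR adjusted p = 0.0283). The *hk1* share of hexokinase UMIs was 3.56 to 51.2 percentage points higher in cardiomyocyte-high nuclei, and largest in difference in WT 3 dpa, with 83.8% against 32.7%.

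Of the phosphofructokinases, *pfkmb*, *pfkpb* and *pfkla* were higher in cardiomyocyte-high nuclei, each in 4 of 4 libraries. *pfkmb* was counted there at 387, 337, 611 and 594 CPM, against 266, 71.7, 375 and 519 CPM (log2 difference 1.29, SE 0.37, edgeR adjusted p = 0.031). *pfkpb* differed by 1.09 (SE 0.30, edgeR adjusted p = 0.0272) and *pfkla* by 0.91 (SE 0.19, edgeR adjusted p = 0.00981). *pfkpa* did not pass (0.72, SE 0.25, edgeR adjusted p = 0.0561). *gpib* was counted at 67.1, 48.0, 31.8 and 65.6 CPM against 45.8, 15.2, 19.2 and 52.7 CPM (1.19, SE 0.25, edgeR adjusted p = 0.00923). Its share of isomerase UMIs was 4.95 to 13.7 points higher in cardiomyocyte-high nuclei, while its paralog *gpia* did not pass (0.54, edgeR adjusted p = 0.0882).

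Both glucose transporters were higher in cardiomyocyte-high nuclei. *slc2a1b* was counted at 391, 354, 148 and 208 CPM against 292, 135, 129 and 171 CPM (log2 difference 0.97, SE 0.26, edgeR adjusted p = 0.0255), and *slc2a1a* differed by 0.95 (SE 0.23, edgeR adjusted p = 0.0167). *aldoab* (0.90, SE 0.25, edgeR adjusted p = 0.0276), *pgam2* (0.66, SE 0.19, edgeR adjusted p = 0.03) and *tpi1a* (1.36, SE 0.30, edgeR adjusted p = 0.012) also passed. *tpi1a* rests on 259 UMIs in all. *bpgm* passed as well (1.27, SE 0.35, edgeR adjusted p = 0.0264), at 105, 81.3, 49.3 and 708 CPM against 57.3, 19.5, 30.1 and 721 CPM. By plain CPM *bpgm*, *aldoab*, *pgam2*, *tpi1a* and *slc2a1a* were higher in cardiomyocyte-high nuclei in 3 of 4 libraries, and on the TMM scale in 4 of 4, except *pgam2* in 3.

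The other 18 genes tested passed in neither direction. Among them *gapdh* differed by 0.08 (SE 0.26) and *eno3* by 0.50 (SE 0.22). The count of 11 changed with the floor on UMIs per nucleus and with which libraries enter. It was 0 for nuclei with at least 1000 UMIs, 3 without WT UI, 5 without mutant UI, 11 without WT 3 dpa and 12 without mutant 3 dpa. The floor of 1000 UMIs also left fewer nuclei, 5445 of 10394 in WT 3 dpa, split again at their own median. The part of depth in that count was not tested. No share of all genes called is given for these alternatives. With library totals in place of TMM, *hk1* (edgeR adjusted p = 0.0689), *aldoab* (edgeR adjusted p = 0.0669) and *pgam2* (edgeR adjusted p = 0.218) lost their call. The rest of the 11 kept theirs. *hk2* was called lower in 11 of 12 alternatives, all but the fit without the library block. Macrophage RNA moved with the split, with 711, 1149, 999 and 155 CPM of the 7 macrophage markers against 120, 260, 278 and 51.3 CPM in cardiomyocyte-high nuclei. Its part in the difference of *hk2* was not tested.

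**Figure D4:**
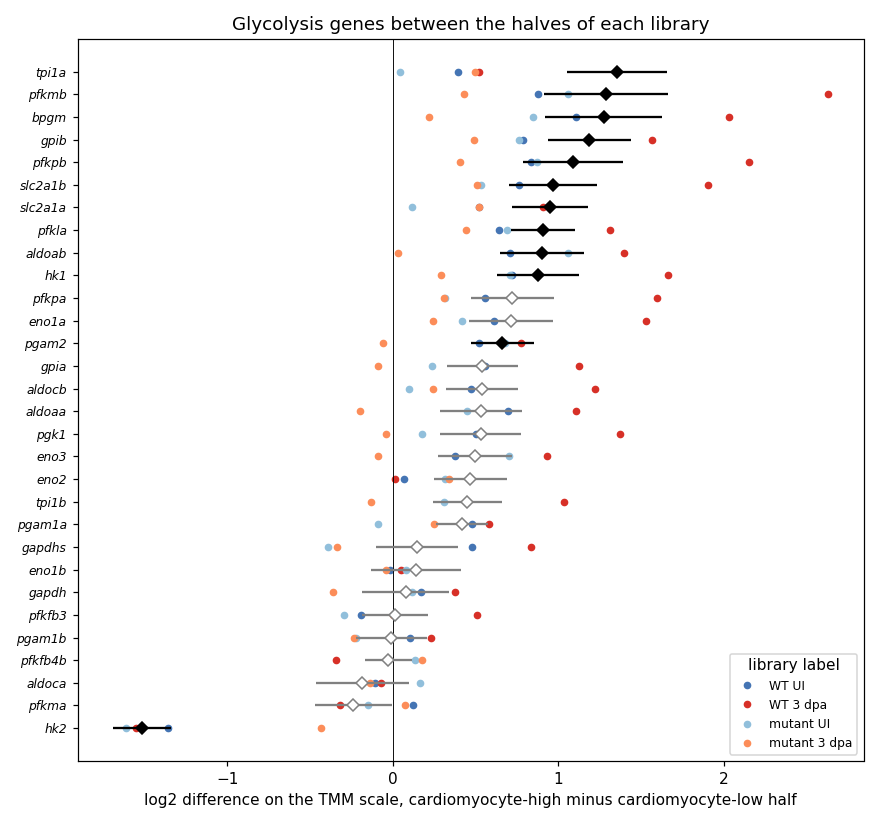
Log2 difference between cardiomyocyte-high and cardiomyocyte-low nuclei on the TMM scale for 30 genes. Coloured points are the 4 libraries, diamonds the edgeR estimate with 1 SE, filled where the adjusted p is under 0.05. *hk2* lies at -1.51 with all 4 libraries below 0, and 11 genes lie to the right as filled diamonds, with WT 3 dpa often the highest point.

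Cardiomyocyte-low nuclei were then pooled by markers of other cell types, with at least 3 UMIs of 1 class and more than of each other class. These pools are described and not tested. *hk2* stood out in the macrophage pool, at 551 (479 to 630), 965 (880.4 to 1055), 969 (877 to 1067) and 287 (157 to 482) CPM, the last from 14 UMIs. In the remaining cardiomyocyte-low nuclei it was counted at 76.8, 268, 315 and 10.1 CPM, so the macrophage pool was above them in all 4 libraries. Nuclei pooled by T or NK lymphocyte markers, most of whose marker UMIs came from *ptprc*, a gene of all leukocytes, had 356, 623, 1013 and 115 CPM of *hk2*. The last of these values rests on 20 nuclei with 19004 UMIs of all genes. The endothelial pool had 88.0, 177, 123 and 2.31 CPM, the last from 417 nuclei with 471201 UMIs of all genes. The level within the macrophage pool also differed between libraries, as the share of macrophage RNA did. Nuclei with no marker class had 56.0, 354, 367 and 9.29 CPM of *hk2*.

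*pfkfb4b* was also above the remaining cardiomyocyte-low nuclei in the macrophage pool of 4 of 4 libraries, at 221 (176 to 273), 253 (211 to 301), 171 (133 to 215) and 246 (127 to 430.1) CPM against 32.4, 53.1, 56.7 and 72.4 CPM. The gene overlaps many coding genes in the RefSeq annotation, which is on another build than the counts. What part such overlap has in its counts was not tested. *pfkfb3* was also above the remaining nuclei in the macrophage pool of 4 of 4 libraries. It was at 20.5 to 71.1 CPM there, from 72 UMIs in all, against 4.37 to 41.4 CPM. The fibroblast and thrombocyte pools were above their remaining nuclei for *pfkfb3* in 3 of 4 libraries. *pfkma* was highest in the pool of erythroid markers in the first 3 libraries, at 22.2, 65.8 and 23.5 CPM from 7, 50 and 10 UMIs, against 6.57, 8.52 and 6.50 CPM in the remaining nuclei. In the library labelled mutant 3 dpa that pool had 0 UMIs of *pfkma*, which allows up to 112 CPM by the upper Poisson bound.

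*bpgm* behaved otherwise. In the library labelled mutant 3 dpa it was counted at 404 to 769 CPM in every pool with nuclei, with 459 (397 to 527) in the endothelial pool, 575 (382 to 830) in the macrophage pool, 699.8 (444 to 1050.1) in the erythroid pool and 767 (738 to 795) in nuclei with no marker class. In the other libraries these 4 pools held 15.8 to 73.0 CPM. The high level of *bpgm* in that library was thus found in all pools with nuclei, and cardiomyocyte-high nuclei held 708 CPM. The 6 erythroid markers found in the tables, all detected in each library, summed to 430, 1158, 908 and 213 CPM, lowest where *bpgm* was highest. In RefSeq the coding gene LOC101885990 overlaps *bpgm*. The cardiomyocyte markers summed to 7078 to 17401 CPM in the macrophage pools. The part of free RNA and of doublets in these values was not tested.

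**Figure D5:**
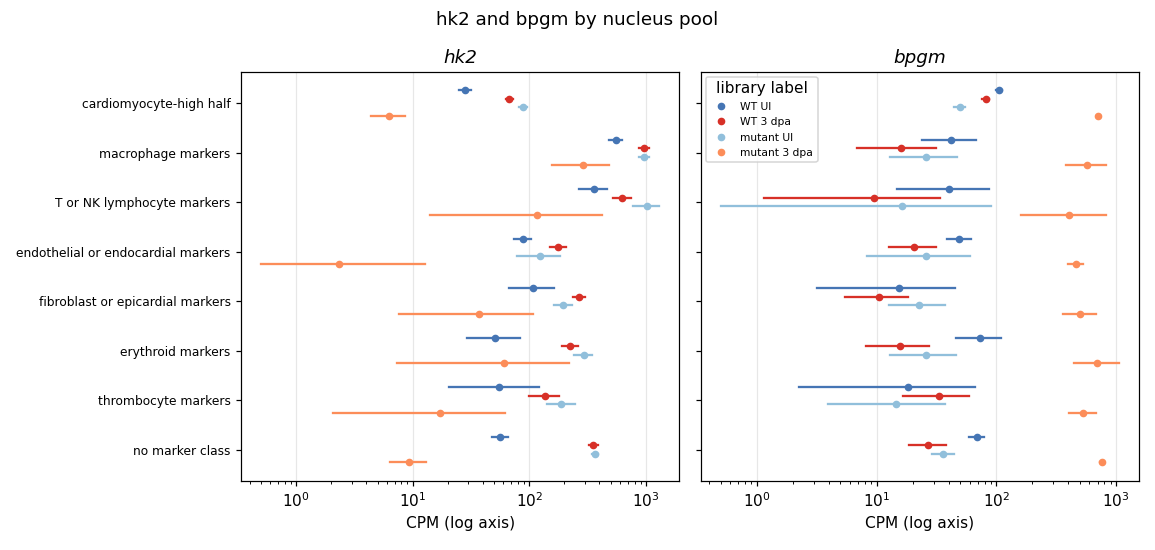
Levels of *hk2* (left) and *bpgm* (right) in cardiomyocyte-high nuclei and in marker pools of the other nuclei (log axis, CPM), with 95% exact Poisson intervals, cut at the left axis limit. *hk2* is at 551 to 969 CPM in the macrophage pools of 3 libraries, and *bpgm* of the library labelled mutant 3 dpa lies at 404 or more in each pool shown.

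Nuclei with at least 1 UMI of *ankrd1a* were set against the rest within each library, to ask whether cells of a border-zone state differ in glycolysis genes. Few of the 31 genes passed the test, and few of all genes did, so the counts are not a result about this list. The *ankrd1a* share was 1.81%, 11.7%, 3.60% and 0.0875% in cardiomyocyte-high nuclei (median 2046, 2031, 1229 and 1147 UMIs) and 0.685%, 3.48%, 2.36% and 0.0656% in cardiomyocyte-low nuclei (median 964, 785, 772 and 789 UMIs). With each nucleus thinned to 500 UMIs the share in all nuclei was 0.391%, 3.52%, 1.48% and 0.0364%. The positive pools held 102, 788, 296 and 7 nuclei, and a nucleus with more UMIs is more often positive. Positive nuclei had medians of 2439.5, 2842.5, 1319.5 and 1373 UMIs, against 1717.5, 1006, 965 and 950 in negative nuclei. The WT UI positive pool held 587259 UMIs of all genes. Without the 6% of nuclei with most UMIs it held 166764, from 77 nuclei, so a few large nuclei supplied most of it. Over all nuclei edgeR's test covered 30 of the 31 genes among 16338 tested. 1 gene was higher in positive nuclei, where 2.72% of all genes were, and 0 were lower, where 2.96% were. At an unadjusted p under 0.05 there were 6 genes in either direction, beside 18.8% of all genes tested, and DESeq2 called 0.

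The 1 gene higher was *eno1b*, counted in positive nuclei at 0, 12.2, 3.88 and 0 CPM from 0, 37, 2 and 0 UMIs, and in the others at 0.703, 4.26, 1.99 and 0.290 CPM. The fitted log2 difference was 1.53 (SE 0.34, edgeR adjusted p = 0.000552), higher in 2 of 4 libraries. DESeq2 gave a log2 difference of 1.47 with no adjusted p. Without WT 3 dpa and without mutant UI *eno1b* had too few UMIs to be tested, and 0 genes were called higher. The count of genes lower was 1 without mutant 3 dpa. *eno1b* overlaps the coding gene *ppil1* in RefSeq. *pfkfb3* was counted in positive nuclei at 20.4, 51.2, 42.7 and 0 CPM against 11.0, 38.9, 32.9 and 4.16 CPM, higher in 3 of 4 libraries, and missed the threshold (0.62, SE 0.23, edgeR adjusted p = 0.0797).

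Within cardiomyocyte-high nuclei 28 genes were tested among 14084. 0 were higher in positive nuclei, where 2.14% of all genes were, and 1 was lower, where 1.5% were. At an unadjusted p under 0.05 there were 7 genes, beside 14.8% of all genes tested, and DESeq2 called 0 higher and 1 lower. Without WT UI or without mutant 3 dpa 1 gene was higher, *eno1b*, which had too few UMIs to be tested over the 4 libraries. The 1 lower gene was *bpgm*, at 75.2, 36.7, 18.5 and 895 CPM in positive nuclei against 107, 93.2, 50.9 and 708 CPM in the others. The fitted log2 difference was -1.08 (SE 0.27, edgeR adjusted p = 0.00396). On the TMM scale it was lower in 4 of 4 libraries, but by plain CPM it was lower in 3 and higher in the library labelled mutant 3 dpa, where 4 positive nuclei gave 5 UMIs of *bpgm*. The count of genes lower was 0 without WT 3 dpa, 0 without mutant UI, and 3 without WT UI or without mutant 3 dpa. *hk2* was counted in the positive nuclei at 65.6, 87.2, 83.4 and 0 CPM against 26.2, 62.2, 88.2 and 6.23 CPM (0.52, SE 0.23, edgeR adjusted p = 0.228).

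Genes of neighbouring pathways were counted in the same tests, to be read beside the shares of all genes called, 12.7% higher and 18.9% lower in cardiomyocyte-high nuclei. Of 22 glycogen genes tested, 13 were higher in cardiomyocyte-high nuclei and 1 was lower. They included *phkb* (0.76, SE 0.22, edgeR adjusted p = 0.0308) and *phka2* (1.18, SE 0.38, edgeR adjusted p = 0.0443), subunits of the kinase that switches on glycogen breakdown, and the 1 lower gene, named after its values were seen, was *ugp2b* (-0.91, SE 0.13, edgeR adjusted p = 0.00143), which makes the sugar donor for glycogen synthesis. Of 11 genes of the pentose phosphate pathway, 1 was higher and 2 were lower, near those shares. The higher gene was *prps1a* (0.43, edgeR adjusted p = 0.0278), whose product makes the activated ribose for nucleotide synthesis. Of 16 other transporters and regulators 8 were higher and 0 lower, among them *slc16a1b* (0.95, SE 0.22, edgeR adjusted p = 0.0129), a lactate transporter, and its partner *bsg* (0.79, SE 0.25, edgeR adjusted p = 0.0409). None of 6 gluconeogenesis genes tested passed in either direction. Over all nuclei 1 of 23 glycogen genes was higher and 1 lower in *ankrd1a*-positive nuclei, beside 2.72% and 2.96% of all genes. In cardiomyocyte-high nuclei 4 of 21 were lower and 0 higher, beside 1.5% and 2.14% of all genes. Among the lower was *phkb* (-0.75, SE 0.24, edgeR adjusted p = 0.0496). *g6pcb*, whose product releases free glucose, was counted at 92.0, 121, 30.6 and 368 CPM and was, like *bpgm*, highest in the library labelled mutant 3 dpa.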

How the data were processed

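Per the file headers, the deposited UMI counts were made with Cell Ranger 7.0.0. The build GRCz11, R 4.2.0 and Seurat 4.3.0 are named per the submitters' processing notes. Annotation, cell calling and use of intronic or antisense reads were not given in the sources used here. Nuclei below 500 UMIs or above 5% mitochondrial UMIs were left out. Doublets were not removed, and an alternative left out the 6% of nuclei with most UMIs. Counts were summed per library and pool of nuclei and divided by the sum over 24753 symbols shared by all gene tables. Ratios between libraries used a pseudocount of 10 CPM and have no replicate, so they carry counting intervals only. Contrasts within libraries were fitted with edgeR 4.0.16 (quasi-likelihood test, filterByExpr, TMM, library block, adjusted p under 0.05) in R 4.3.3, with DESeq2 1.42.0 as an alternative. Their p-values rest on the spread between 4 libraries, with information on that spread shared across genes. In the *ankrd1a* contrasts the spread was taken from all genes together. A p-value there does not measure a gene's own spread between libraries. The procedure was tested on simulated data for the split by cardiomyocyte RNA, and not for the *ankrd1a* contrasts. The simulated library effects were the same in both pools of a library. Differences between pools that vary by library, beyond a fixed spread of the counts, were thus not simulated. Python 3.11.15 and scipy 1.17.1 gave exact intervals. Libraries are paired across pools because both pools come from the same library.

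All 31 genes are accounted for. Values per library were given for the gene with most UMIs of each step and for genes past 2-fold in a library ratio, and tests for each gene called. Neighbouring pathways are given by counts and the 2 genes with most UMIs, of which 1 is not reported here. The genes and lists were chosen with earlier results of these data known. Gene overlaps come from RefSeq on assembly GRCz12tu, another build than that of the counts, so no coordinates are given. It lists a coding gene overlapping 7 of the 31: *gck*, *pfkpa*, *pfkla*, *aldoca*, *eno1b*, *pfkfb4b* and *bpgm*. Reads of near-identical paralogs may be split between them.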

Additional observations from a re-analysis of the deposited data

Results flagged for a closer look

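*hk2* and *pfkfb3* moved in opposite directions between the injury labels of the genotypes. The log2 ratio of CPM + 10 of 3 dpa over UI was 1.21 in WT and -3.50 in the mutant for *hk2*, and 1.26 in WT and -1.62 in the mutant for *pfkfb3*. With 1 library per group the difference was not tested. The *ankrd1a* share of nuclei and the macrophage marker sums moved in the same opposite way.

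In the contrast of *ankrd1a*-positive with other cardiomyocyte-high nuclei, the log2 difference of *bpgm* on the TMM scale was -0.52 in WT UI. The value was -1.15 in both libraries labelled 3 dpa and -1.14 in mutant UI. That of mutant 3 dpa rests on 5 UMIs in 4 nuclei and on a TMM shift of -1.51. By plain CPM *bpgm* was higher there in positive nuclei, at 895 against 708 CPM, so that on that scale it is mutant 3 dpa that differs in sign from the other 3. On the TMM scale WT UI was the 1 value set apart by Dixon's criterion for 4 libraries among 14 called results examined, and chance sets apart about 1 in 20 groups.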

How the results depend on the processing

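No gene past 2-fold or called changed sign under an alternative, but directions over the 31 genes depended on scaling. Under TMM the median ratio in all nuclei turned from 0.01 to -0.38 in WT, from -0.05 to 0.26 in the mutant and from -0.13 to 0.11 between genotypes at 3 dpa. Of the 31 ratios 11, 4 and 7 changed sign there, and 1 between genotypes at UI. Of the counts of genes recomputed under the alternatives, 93 stayed within 1.5 times their main value and 39 did not. Of single values, 379 stayed, 29 moved and 47 lost their call. Counts past 2-fold between libraries rose with a pseudocount of 1 CPM in place of 10: in all nuclei from 2 to 4 (WT 3 dpa over UI), 6 to 11 (mutant 3 dpa over UI) and 4 to 8 (mutant over WT at UI), and in cardiomyocyte-high nuclei from 2 to 4, 6 to 11, 4 to 10 and, at 3 dpa, 9 to 14. With TMM scaling the WT count in all nuclei was 5, all lower where the 2 had been higher, and that of the genotypes at UI 9, or 10 in cardiomyocyte-high nuclei. No share of all genes past 2-fold is given for the pseudocount of 1 CPM or for TMM scaling. The WT count in cardiomyocyte-high nuclei was 1 with at least 1000 UMIs and 1 with a stricter cut on marker share.

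In the split by cardiomyocyte RNA, 0 genes were higher with at least 1000 UMIs. With no replicate block, that is without the library term, 0 were higher and 0 lower. Without each library in turn, 3 to 12 were higher and 1 to 1 lower. In the *ankrd1a* contrast over all nuclei the count higher was 0 without the 6% of nuclei with most UMIs, 0 with DESeq2, 0 with no replicate block, 0 with nuclei thinned to 500 UMIs, and 0 to 1 without each library. The gene called, *eno1b*, could not be tested without the 6% of nuclei, when thinned, without WT 3 dpa or without mutant UI, and had no adjusted p in DESeq2. The count lower was 1 with at least 1000 UMIs, 1 with library totals in place of TMM, and 0 to 1 without each library. In cardiomyocyte-high nuclei the count higher was 1 with at least 1000 UMIs, 1 with a mitochondrial limit of 10%, 1 with no filter on low counts, and 0 to 1 without each library. The count lower was 2 with at least 1000 UMIs, 0 without the 6% of nuclei with most UMIs, 0 with no replicate block, 0 when thinned, and 0 to 3 without each library. No share of all genes called is given under these alternatives, here or above. A change in these counts can therefore not be set against the change over all genes. The causes were not tested. No paired analysis was possible because each group is 1 library, as far as the ratios between libraries go. Pools with few nuclei, such as the 7 *ankrd1a*-positive nuclei labelled mutant 3 dpa, limit what a difference can show.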
